A study of Bombyx mori with 4 samples.

Results

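The ecdysone pathway was examined on 63 of the 23229 gene probes of a silkworm oligonucleotide array. These were the probes of the ecdysone receptor (sw18055), the nuclear receptor E75 (sw11067), BmFTZ-F1 (sw14325) and ecdysone 20-hydroxylase (sw16581), together with every other gene probe whose symbol or description contained "ecdys", "nuclear receptor" or "nuclear hormone receptor". The cells were BmN4-SID1, an ovary-derived silkworm line in which double-stranded RNA added to the medium enters the cells, 7 days after RNAi against 1 of 4 Polycomb group genes (BmSCE, BmESC, BmPHO or BmSCM). The control was the same line 7 days after RNAi against EGFP, which is not a silkworm gene. Each knockdown was hybridized once, as a pool of 3 experiments, where Cy5 labelled the knockdown and Cy3 labelled EGFP RNAi, without a dye swap. The spread between cultures was therefore not measured, dye and knockdown cannot be told apart, no p-value was computed, and all 4 comparisons shared the EGFP RNAi control. In such bulk RNA, a change in the share of cells that express a gene and a change in RNA per cell cannot be told apart.

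Ecdysone is the steroid hormone that times moulting and metamorphosis in insects. The last steps of its synthesis are carried out by cytochrome P450 enzymes of the Halloween group, and ecdysone 20-hydroxylase then converts ecdysone in peripheral tissues into the active hormone, 20-hydroxyecdysone. The hormone binds the ecdysone receptor, which pairs with ultraspiracle on DNA and switches on early genes such as E75, E74 and Broad, and FTZ-F1 follows as the hormone declines. Polycomb group proteins are repressors that act on chromatin, and the knockdowns were made to ask which genes rise when they are lost.

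A probe is called measured on an array when its spot passed the deposited flag, which on these values means that the brighter dye reached an intensity of 400. The log2 ratio is knockdown over EGFP RNAi after normalization within the array, and a probe rose or fell when it passed 2-fold, a log2 ratio of 1. Of the 63 probes, 10 were measured on all 4 arrays, 18 on some and 35 on none. The array carried 7833, 9869, 7434 and 8310 measured gene probes in the BmSCE, BmESC, BmPHO and BmSCM knockdowns, and 8 of the ecdysone and nuclear receptor probes were measured in BmESC RNAi alone. Within an array, 5 silkworm control probes printed 49 times each had a median SD of 0.0907 to 0.247 in log2 ratio. Their median intensities were 5010 or more in either dye, so this covers spot error of bright probes and neither dim probes nor cultures. Gaps between knockdowns given below in multiples of this spread are therefore a description and not a test. Yeast spike-in controls did not sit at one ratio on all arrays: their median log2 ratio was 1.29 for BmSCE RNAi, 1.25 for BmESC RNAi, 3.96 for BmPHO RNAi and 3.20 for BmSCM RNAi, and the part of that difference in the results was not tested. The match to extra sex combs (sw12637), the counterpart of the BmESC target, had a log2 ratio of -2.61 in BmESC RNAi, against 0.13, -0.33 and -0.68 in BmSCE, BmPHO and BmSCM RNAi. No silkworm vitellogenin probe of 8, a yolk protein of the fat body, was measured. Of 20 chorion probes, eggshell proteins of the ovary, 10 were measured on at least 1 array. Only 4 of them reached 400 in the EGFP RNAi dye on all 4 arrays. For egg-specific protein 1 of 4 probes was measured on any array, and for the vitellogenin receptor 2 of 4. Whether these values mark a cell type was not tested.

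The sequences at hand for these genes are the RT-PCR primers of E75, the gene whose probe passed 2-fold in every knockdown. They are shown 5′ to 3′ because they define the transcript that was followed outside the array, and their place relative to the array probe is not given.
E75 sense primer: tgactgtcccacctactcgcagcctactct
E75 antisense primer: cgcgagtgcattctttccactagctctatg

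E75 rose in all 4 knockdowns, the ecdysone receptor probe sw18055 rose in BmPHO and BmSCM RNAi, BmFTZ-F1 rose in BmSCM RNAi, and ecdysone 20-hydroxylase fell in BmPHO and BmSCM RNAi. In BmSCE RNAi 3 of 16 measured ecdysone and nuclear receptor probes rose (2.43% of all measured probes rose) and 1 fell (1.10% of all). In BmESC RNAi 2 of 26 rose (4.46% of all) and 0 fell (3.25% of all). In BmPHO RNAi 3 of 12 rose (11.8% of all) and 2 fell (7.82% of all). In BmSCM RNAi 4 of 14 rose (9.46% of all) and 2 fell (6.29% of all). As shares of the measured ecdysone and nuclear receptor probes, the rises made up 18.8% for BmSCE RNAi, 7.69% for BmESC RNAi, 25% for BmPHO RNAi and 28.6% for BmSCM RNAi. These counts rest on few probes, and 5 to 12 of those measured on each array passed the flag through the knockdown dye alone, so the counts are a description and support nothing by themselves. With both dyes at 400 or more, 8, 14, 5 and 6 of the probes were left in the BmSCE, BmESC, BmPHO and BmSCM knockdowns.

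The median log2 ratio of the measured ecdysone and nuclear receptor probes was 0.25 for BmSCE RNAi, 0.15 for BmESC RNAi, 0.71 for BmPHO RNAi and 0.77 for BmSCM RNAi. Over all measured gene probes it was 0.02, 0.02, 0.05 and 0.07 on the same arrays. With both dyes at 400 or more the median of the ecdysone and nuclear receptor probes in BmESC RNAi was -0.06, of the opposite sign. With no filter on dim spots the medians were 0.00 on all 4 arrays. Dim intensities were raised to a common floor, so a probe under it in both dyes gets a log2 ratio near 0.00 by construction. This held for 14 of the 63 probes on every array and for others on some, so the unfiltered medians cannot show whether the group shifted. Single probes of the whole array also spread more widely in BmPHO and BmSCM RNAi, with SDs of 0.828 and 0.760, than in BmSCE and BmESC RNAi, with 0.449 and 0.548. In total 10 of the 63 probes passed 2-fold on some array: E75 on all 4, another 4 probes on 2 arrays and 5 on a single array.

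**Figure D1:**
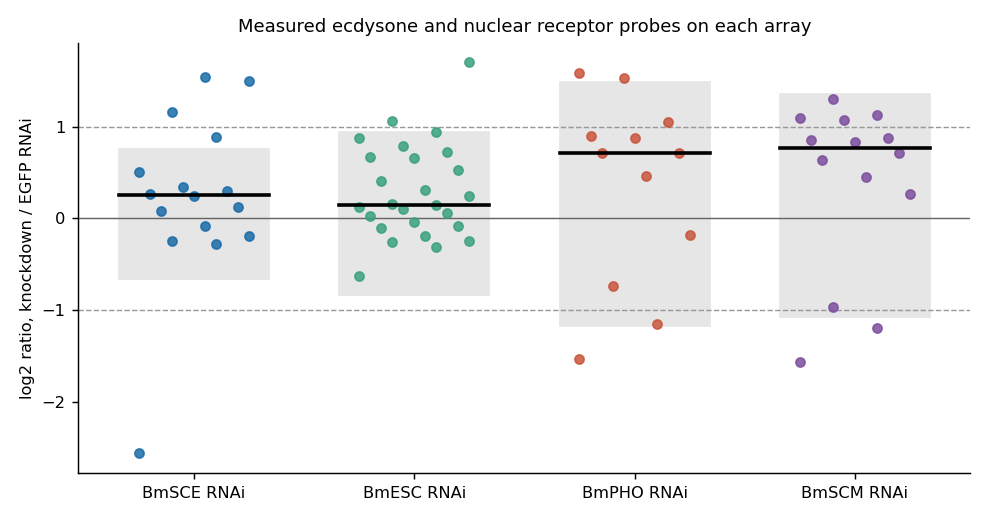
Log2 ratio of knockdown over EGFP RNAi (vertical axis) for each ecdysone or nuclear receptor probe that passed the flag on the array named below it, with 1 point per probe. Black bars are medians of these points, grey boxes hold the central 5th to 95th percentile of all measured gene probes, and dashed lines mark 2-fold. The highest point in BmESC RNAi is E75 at 1.70 and the lowest in BmSCE RNAi is a reductase match at -2.56, whose knockdown intensity lay under the floor of 100.

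The ecdysone receptor is the nuclear receptor that binds 20-hydroxyecdysone. Probe sw18055 had intensities of 849, 949, 1431 and 1647 in the BmSCE, BmESC, BmPHO and BmSCM knockdowns, against 618, 689, 441 and 478 for EGFP RNAi on the same arrays. The knockdown dye was the brighter on every array, by most in BmPHO and BmSCM RNAi. After normalization the log2 ratio was 1.53 in BmPHO and 1.30 in BmSCM RNAi, and 0.24 in BmSCE and 0.12 in BmESC RNAi. The gap of 1.06 between BmSCM and BmSCE RNAi was 6.40 times the combined spread of control spots, while the gaps of 0.24 between BmPHO and BmSCM RNAi and of 0.12 between BmSCE and BmESC RNAi stayed under 2 such spreads. Those control spots were far brighter than this probe, so their spread need not hold for it. In the authors' normalized ratio the values were 0.86 in BmPHO and 0.95 in BmSCM RNAi, short of 2-fold, loess within each print block gave 0.77 in BmSCM RNAi, and the sign in BmSCE and BmESC RNAi also depended on the normalization.

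None of the other 3 ecdysone receptor probes passed 2-fold where it was measured. Probe sw17770, which carries the same silkworm gene number, was measured in BmESC RNAi at 0.24 (431 in BmESC RNAi against 299 in EGFP RNAi) and in BmSCM RNAi at 0.64 (503 in BmSCM RNAi against 204 in EGFP RNAi). Probe sw11842, described as the 20-hydroxyecdysone receptor, was measured in BmESC RNAi alone, at 0.53. Probe sw11434, described as the region specific to the A isoform, gave 0.30 in BmSCE and -0.31 in BmESC RNAi. In BmPHO RNAi these 3 probes were all too dim to be measured, with the brighter dye between 279 and 305. The receptor's rise in BmPHO RNAi thus rests on 1 probe, and which receptor isoforms sw18055 reads is not given.

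E75 is a nuclear receptor and an early target of the ecdysone receptor. Probe sw11067 had intensities of 5960, 6927, 4178 and 3146 in the BmSCE, BmESC, BmPHO and BmSCM knockdowns, against 1824, 1630, 1363 and 1232 for EGFP RNAi. All knockdown values lay above all EGFP RNAi values, and both dyes were far above the flag. The log2 ratio was 1.50 for BmSCE RNAi, 1.70 for BmESC RNAi, 1.58 for BmPHO RNAi and 1.07 for BmSCM RNAi. BmESC, BmPHO and BmSCE RNAi lay within 0.13 and 0.08 of their neighbours, under 2 combined spreads of control spots, and BmSCM RNAi lay 0.42 below BmSCE RNAi, 2.57 such spreads. The range over the alternatives was 1.46 to 1.56, 1.61 to 1.73, 1.48 to 1.59 and 0.89 to 1.19 in the same order, and only median centring left BmSCM RNAi short of 2-fold.

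Both further E75 probes differed from sw11067. Probe sw07625, a match to E75 of a land crab, gave -0.08 in BmSCE RNAi (431 in BmSCE RNAi against 383 in EGFP RNAi) and -0.25 in BmESC RNAi (512 in BmESC RNAi against 493 in EGFP RNAi). Probe sw06304, described as E75C, was measured in BmESC RNAi alone, at 0.67 (479 in BmESC RNAi against 247 in EGFP RNAi). Neither was measured in BmPHO or BmSCM RNAi. The change of E75 is therefore a change of the signal of sw11067, and whether its isoforms moved unequally was not tested.

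BmFTZ-F1 is the silkworm counterpart of the FTZ-F1 orphan nuclear receptor, which in Drosophila sets the competence of tissues for the next hormone pulse. Probe sw14325 had intensities of 440, 771, 710 and 1126 in the BmSCE, BmESC, BmPHO and BmSCM knockdowns, against 290, 325, 329 and 345 for EGFP RNAi. The knockdown values were above the EGFP RNAi values on every array, and EGFP RNAi stayed under 400 throughout, so the probe passed the flag through the knockdown dye alone. Its log2 ratio was 0.34, 0.94, 0.90 and 1.13, past 2-fold in BmSCM RNAi, and the values in BmESC and BmPHO RNAi reached 1.03 and 1.04 under 1 alternative each. In order of level, the gaps from BmSCM to BmESC and from BmESC to BmPHO RNAi were 0.19 and 0.04, under 2 combined spreads of control spots, and BmSCE RNAi lay 0.56 below BmPHO RNAi. The control spots were far brighter than this probe too.

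The second BmFTZ-F1 probe, sw00908, had intensities of 551, 449, 561 and 788 in the BmSCE, BmESC, BmPHO and BmSCM knockdowns, against 389, 296, 293 and 241 for EGFP RNAi. It gave 0.27, 0.31, 0.71 and 1.09 and passed 2-fold in BmSCM RNAi. Its EGFP RNAi values were also all under 400, so like sw14325 it was measured through the knockdown dye alone, a filter that favours values above 0, and the likeness of both probes supports nothing by itself. In BmSCM RNAi their ranges over the alternatives were 1.04 to 1.35 for sw14325 and 1.09 to 1.67 for sw00908. In BmESC RNAi they differed, with 0.94 for sw14325 and 0.31 for sw00908.

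**Figure D2:**
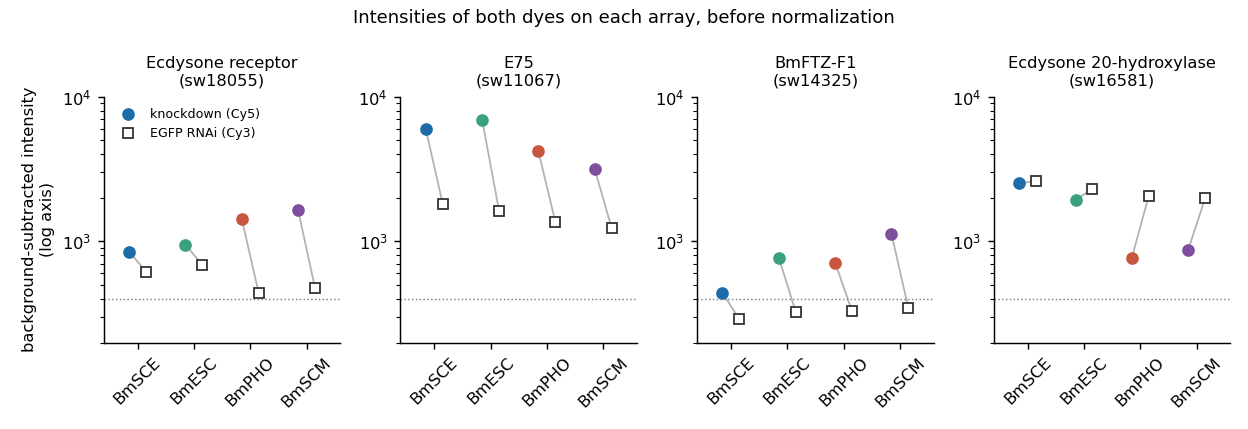
Background-subtracted intensity on a log axis for the probes of the ecdysone receptor, E75, BmFTZ-F1 and ecdysone 20-hydroxylase, with filled circles for the knockdown (Cy5) and open squares for EGFP RNAi (Cy3) of the same array. The dotted line is the flag at 400. E75 lies between 3146 and 6927 in the knockdowns, above 1232 to 1824 in EGFP RNAi, and ecdysone 20-hydroxylase lies at 771 and 873 in BmPHO and BmSCM RNAi, below 2067 and 1986 in EGFP RNAi.

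Ecdysone 20-hydroxylase, the P450 enzyme Cyp314a1, makes the active hormone. Probe sw16581 had intensities of 2532, 1939, 771 and 873 in the BmSCE, BmESC, BmPHO and BmSCM knockdowns, against 2610, 2298, 2067 and 1986 for EGFP RNAi. In these intensities, before normalization, BmPHO and BmSCM RNAi were low, and BmSCE and BmESC RNAi were nearer to EGFP RNAi. The log2 ratio was -1.53 in BmPHO, -1.57 in BmSCM, -0.63 in BmESC and -0.25 in BmSCE RNAi. The falls in BmPHO and BmSCM RNAi stayed past 2-fold under all 8 alternatives. Those alternatives that change only the filter leave a single value as it is by construction. The gap of 0.90 between BmESC and BmPHO RNAi was 3.41 combined spreads of control spots, and that of 0.04 between BmPHO and BmSCM RNAi was below 1.

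The other Cyp314a1 probes moved less. Probe sw01790 had intensities of 513, 589, 364 and 338 in the BmSCE, BmESC, BmPHO and BmSCM knockdowns, against 532, 566, 522 and 426 for EGFP RNAi, and gave -0.28, -0.26, -0.74 and -0.97. It was lowest in the same knockdowns as sw16581 and did not reach 2-fold, though its value in BmSCM RNAi ran from -1.01 to -0.30 over the alternatives. The remaining probes, sw07495 and sw00087, were too dim on every array. The EGFP RNAi signal of sw16581, scaled to the median of each array, differed by 1.16-fold between its highest and lowest array, against a median of 1.30-fold over 6491 probes measured on all arrays. The same range was 1.28-fold for E75, 1.38-fold for BmFTZ-F1 and 1.45-fold for the ecdysone receptor probe.

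**Figure D3:**
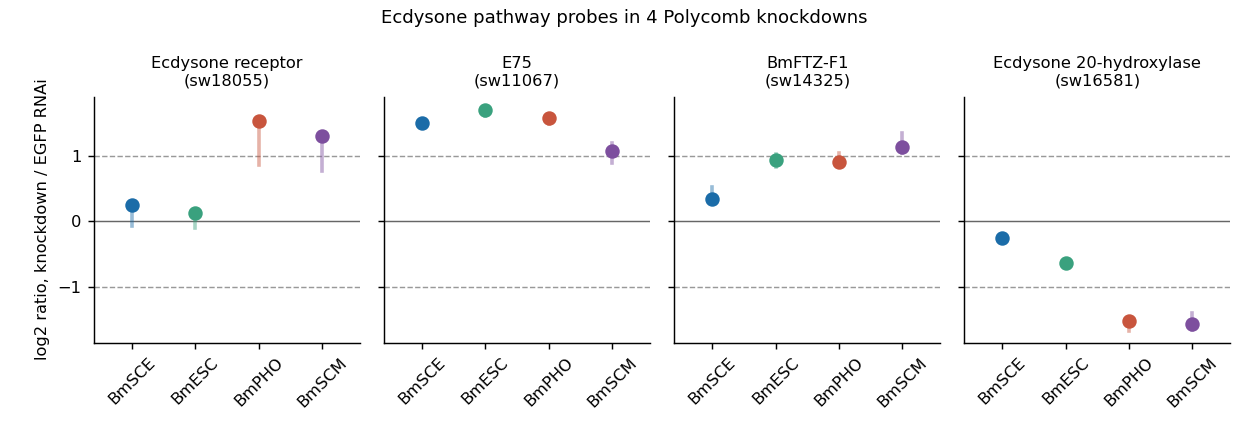
Log2 ratio of knockdown over EGFP RNAi (vertical axis) in the 4 knockdowns for 1 probe each of the ecdysone receptor, E75, BmFTZ-F1 and ecdysone 20-hydroxylase. Points are the values after loess within the array, pale bars span the values under the alternative settings and are not replicate errors, and dashed lines mark 2-fold. The points of E75 are above the upper line in all knockdowns. The bar of E75 in BmSCM RNAi reaches down to 0.89, and those of the ecdysone receptor in BmPHO and BmSCM RNAi to 0.86 and 0.77.

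**Figure D4:**
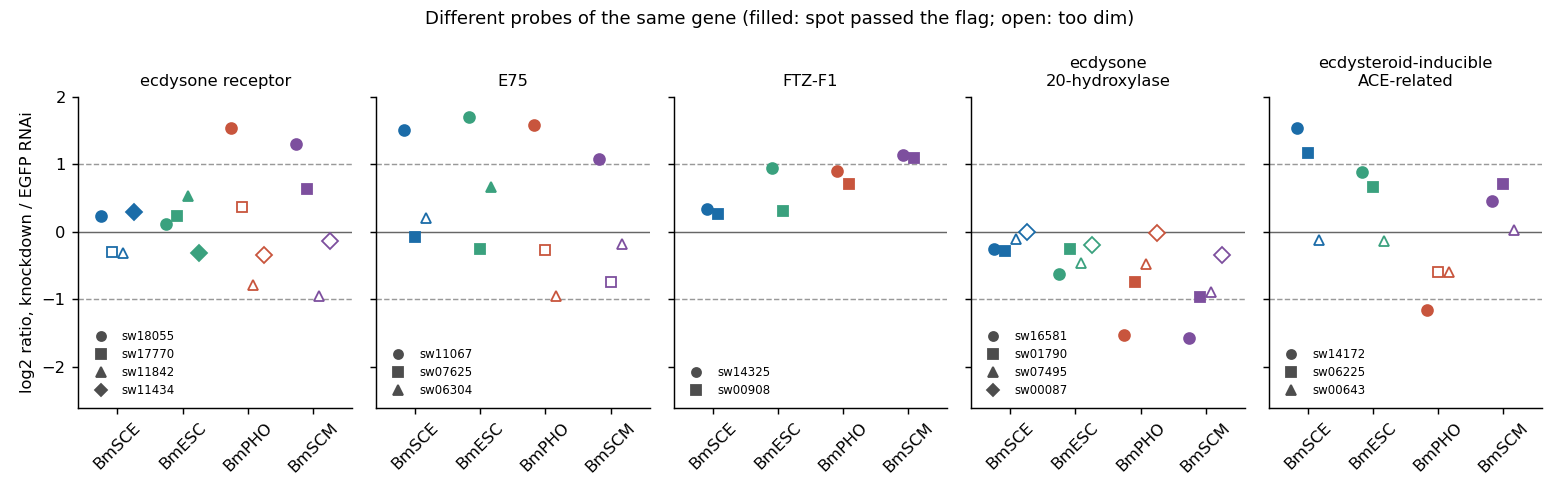
Log2 ratio of knockdown over EGFP RNAi (vertical axis) by knockdown for every probe assigned to the same gene, with 1 marker shape per probe. Filled markers passed the flag, open markers were too dim to be read, and dashed lines mark 2-fold. The measured probes of BmFTZ-F1 lie above 0 and those of ecdysone 20-hydroxylase below 0 in every knockdown. Both BmFTZ-F1 probes passed through the knockdown dye alone, a filter that favours values above 0. In BmPHO and BmSCM RNAi sw01790 passed through the EGFP RNAi dye alone, which favours values below 0. Measured E75 probes lie on both sides in BmSCE and BmESC RNAi, and those of the ecdysone receptor in BmESC RNAi.

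Among the other enzymes that act on ecdysteroids, 8 probes matched 3-dehydroecdysone 3alpha-reductase of a moth, an enzyme that inactivates the hormone precursor, and 4 of them were measured. Probe sw19113 had intensities of 2333, 2732, 3491 and 3128 in the BmSCE, BmESC, BmPHO and BmSCM knockdowns, against 1858, 1901, 1857 and 1425 for EGFP RNAi. It was higher in each knockdown without reaching 2-fold, at 0.12, 0.14, 0.88 and 0.87. Probe sw21851, with the same match, was measured in BmSCE RNAi alone, where it had 92 in BmSCE RNAi against 462 in EGFP RNAi. Its log2 ratio was -2.56 with the knockdown intensity set to the floor of 100, and it ran from -2.93 to -1.49 over the alternatives, so the size of this fall was not well determined. The remaining measured probes of this match went the other way. Probe sw22643 gave 0.89 in BmSCE RNAi (417 in BmSCE RNAi against 182 in EGFP RNAi). Probe sw22644 gave 0.79 in BmESC RNAi (463 in BmESC RNAi against 220 in EGFP RNAi). Each was measured on that array alone and through the knockdown dye alone. Whether the probes that share this match read 1 gene is not given. The ecdysteroid-phosphate phosphatase probe (sw07393), for the enzyme that frees stored hormone in eggs, was measured at 0.02 in BmESC RNAi and at -1.19 in BmSCM RNAi (335 in BmSCM RNAi against 493 in EGFP RNAi). That fall passed through the EGFP RNAi dye alone and shrank to as little as -0.53 under other settings. All 12 probes of ecdysteroid glucosyltransferases, most of them matches to baculovirus proteins that inactivate the hormone, were unmeasured, with no intensity above 246.

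The genes described as induced by ecdysteroids did not move one way. Probe sw14172, a match to an ecdysteroid-inducible relative of angiotensin-converting enzyme, had intensities of 1678, 1310, 248 and 799 in the BmSCE, BmESC, BmPHO and BmSCM knockdowns, against 496, 558, 467 and 388 for EGFP RNAi. It rose in BmSCE RNAi (1.54), fell in BmPHO RNAi (-1.15), and gave 0.88 in BmESC and 0.45 in BmSCM RNAi. In BmPHO RNAi it passed through the EGFP RNAi dye alone, a filter that favours values below 0. In BmSCM RNAi it passed through the knockdown dye alone. Probe sw06225, with the same match, also rose in BmSCE RNAi (1.16, with 579 in BmSCE RNAi against 216 in EGFP RNAi) and was too dim in BmPHO RNAi. It gave 0.66 in BmESC and 0.71 in BmSCM RNAi. On these 3 arrays sw06225 passed through the knockdown dye alone, a filter that favours values above 0. Its likeness to sw14172 supports nothing by itself. The ecdysteroid-regulated 16 kDa protein (sw11619) rose in BmESC RNAi (1.06, with 842 in BmESC RNAi against 327 in EGFP RNAi) and in BmPHO RNAi (1.05, with 546 in BmPHO RNAi against 223 in EGFP RNAi). Both of these rises passed through the knockdown dye alone, sit at the threshold and drop to 1.00 and 0.99 under 1 alternative each. The other 5 probes of this group were unmeasured, among them sw00643, also described as the angiotensin-converting enzyme relative.

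Coactivators of nuclear receptors stayed within 2-fold. A match to nuclear receptor coactivator 6 (sw13394) had intensities of 2340, 2985, 2087 and 2829 in the BmSCE, BmESC, BmPHO and BmSCM knockdowns, against 2311, 2411, 2277 and 2001 for EGFP RNAi, and gave -0.19, -0.08, -0.18 and 0.26. A match to nuclear receptor coactivator 2 (sw06131) gave 0.08, -0.04, 0.46 and 0.85, the last as high as 1.52 under other settings, while its scaled EGFP RNAi signal differed by 2.24-fold between arrays. The 14 measured probes outside the rule for named genes gave 20 measured values between -0.31 and 0.89, all within 2-fold. The 35 unmeasured probes include Bhr38, both GRF probes and the probes of eclosion hormone and of the precursor of ecdysis-triggering hormone, and for them a change was not detectable at these intensities.

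Genes of ecdysteroid synthesis and turnover outside the 63 probes were read from a list of 12 probes, 6 of them measured. Of these, sw01406 and sw00509 are both named as the same gene, sterol carrier protein x. Falls outnumbered rises except in BmSCE RNAi: 0 of 6 measured probes fell and 1 rose in BmSCE, 3 of 6 fell and 1 rose in BmESC, 2 of 4 fell and 1 rose in BmPHO, and 3 of 5 fell and 0 rose in BmSCM RNAi. Over all measured probes, 1.10%, 3.25%, 7.82% and 6.29% fell and 2.43%, 4.46%, 11.8% and 9.46% rose on the same arrays. The list's median was -0.48, -0.62 and -1.05 in BmSCE, BmESC and BmSCM RNAi, against 0.02, 0.02 and 0.07 over all measured probes, with too few probes for a median in BmPHO RNAi. These counts and medians rest on few probes, weigh sterol carrier protein x by both of its probes, and support nothing by themselves. Cyp315a1 (sw17546), the P450 that completes ecdysone, had intensities of 778, 507, 124 and 281 in the BmSCE, BmESC, BmPHO and BmSCM knockdowns, against 1058, 999, 545 and 753 for EGFP RNAi. It gave -0.66, -1.31, -2.39 and -2.04, past 2-fold in BmESC, BmPHO and BmSCM RNAi, whereas Cyp314a1 passed 2-fold in BmPHO and BmSCM RNAi. In BmPHO and BmSCM RNAi Cyp315a1 passed through the EGFP RNAi dye alone, a filter that favours values below 0. Over the alternatives Cyp315a1 ran from -2.49 to -1.75 in BmPHO and from -2.16 to -1.51 in BmSCM RNAi. Cyp302a1 (sw13659), the P450 of the step before it, was higher in every knockdown, with 4700, 4216, 4341 and 2756 in the BmSCE, BmESC, BmPHO and BmSCM knockdowns, against 2530, 1987, 1887 and 1958 for EGFP RNAi. It gave 0.68, 0.70, 1.18 and 0.25 and passed 2-fold in BmPHO RNAi, where the authors' ratio gave 0.97.

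Cyp18a1 (sw01581), which inactivates 20-hydroxyecdysone, rose in BmSCE RNAi (1.03, with 477 in BmSCE RNAi against 191 in EGFP RNAi) and in BmESC RNAi (1.43, with 1134 in BmESC RNAi against 337 in EGFP RNAi). Both rises passed through the knockdown dye alone, a filter that favours values above 0. The probe was too dim to be read in BmPHO RNAi (377 against 106 in EGFP RNAi) and BmSCM RNAi (315 against 97 in EGFP RNAi). The rise can therefore not be called particular to BmSCE and BmESC RNAi. Its value in BmSCE RNAi was as low as 0.81 under other settings. Sterol carrier protein x, which takes part in the handling of cholesterol, fell on both of its probes in BmESC RNAi (-1.36 for sw01406 and -1.13 for sw00509) and in BmSCM RNAi (-1.05 and -1.19). In BmPHO RNAi it gave -1.15 for sw01406 and -0.51 for sw00509, and in BmSCE RNAi -0.68 and -0.72. Cyp307a1 (sw07982), an early enzyme of the pathway, stayed between -0.45 and -0.11 where measured.

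**Figure D5:**
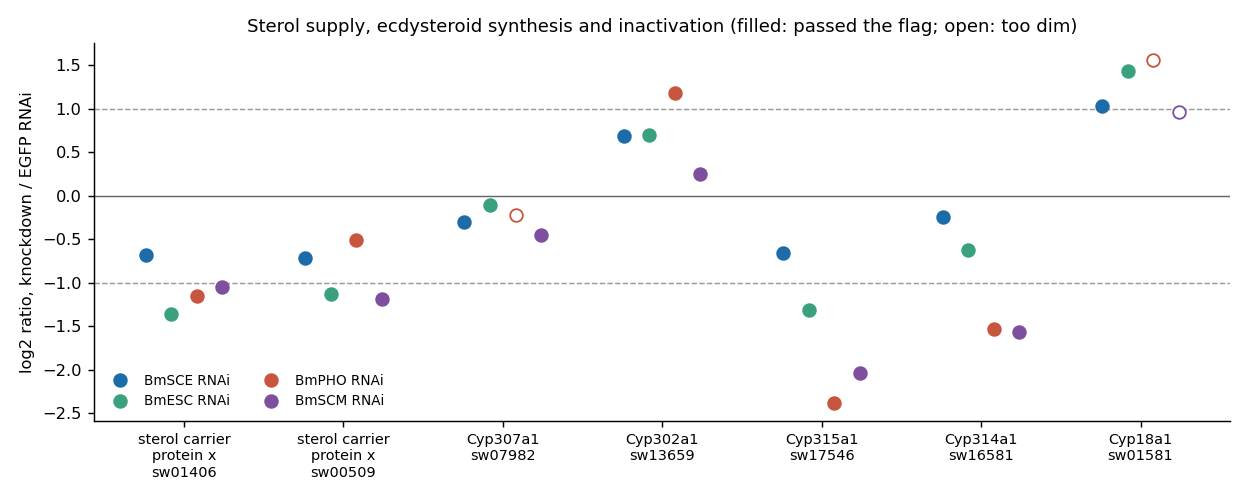
Log2 ratio of knockdown over EGFP RNAi (vertical axis) in the 4 knockdowns for probes of sterol carrier protein x, the synthesis enzymes Cyp307a1, Cyp302a1, Cyp315a1 and Cyp314a1, and the inactivating enzyme Cyp18a1. Filled points passed the flag, open points were too dim to be read, and dashed lines mark 2-fold. Cyp315a1 and Cyp314a1 are lowest in BmPHO and BmSCM RNAi, and Cyp302a1 is above 0 in all 4 knockdowns.

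The list of ecdysone response transcription factors and other receptors held 43 probes outside the 63, of which 15 matched proteins named only for binding a thyroid hormone receptor, and 17 were measured. None of 10 measured probes passed 2-fold in BmSCE RNAi, 1 of 15 fell in BmESC RNAi, 1 of 9 fell in BmPHO RNAi, and 1 of 14 rose and 1 fell in BmSCM RNAi, beside the same shares over all measured probes as given for the synthesis list. The list's median was 0.10, 0.14, -0.13 and 0.17, against 0.02, 0.02, 0.05 and 0.07 over all measured probes. Of the 17 measured probes, 9 were thyroid hormone receptor matches, so these counts and medians largely describe such matches. In BmPHO RNAi the only measured probes without that match were sw10835 (0.44), sw03828 (0.73) and sw04535 (0.99), all above 0. Of these, sw04535 passed through the knockdown dye alone, a filter that favours values above 0. The probe that rose was hormone receptor 39 (sw04535), in Drosophila a nuclear receptor related to FTZ-F1. It had 620, 576, 773 and 1146 in the BmSCE, BmESC, BmPHO and BmSCM knockdowns, against 348, 343, 337 and 279 for EGFP RNAi. Its log2 ratios were 0.60, 0.45, 0.99 and 1.45. The EGFP RNAi values were all under 400, so it was measured through the knockdown dye alone on every array. Another hormone receptor 39 probe (sw09315) was too dim on every array. The probe that fell was an AAA family ATPase described as thyroid hormone receptor interactor 13 (sw14545), which is not an ecdysone response factor, at -0.71, -1.45, -2.16 and -1.19.

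The early genes other than E75 stayed within 2-fold where they were measured. A Broad-Complex probe for the NZ4 isoform (sw03828) had 3994, 6676, 3907 and 5186 in the BmSCE, BmESC, BmPHO and BmSCM knockdowns, against 3009, 2794, 2323 and 2992 for EGFP RNAi, and gave 0.20, 0.87, 0.73 and 0.66. E74 (sw00164) gave 0.14 in BmESC and 0.49 in BmSCM RNAi and was too dim in BmSCE and BmPHO RNAi. Both ultraspiracle probes, for the partner of the ecdysone receptor, were too dim on every array, with intensities between 72 and 259.

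The list of receptor cofactors held 10 probes, 8 of them measured. In BmSCE RNAi 0 of 6 passed 2-fold, in BmESC RNAi 1 of 8 rose and 2 fell, in BmPHO RNAi 2 of 6 fell, and in BmSCM RNAi 0 of 5 passed. Over all measured probes, 4.46% rose and 3.25% fell in BmESC RNAi and 7.82% fell in BmPHO RNAi. The median was 0.52, -0.21, -0.31 and -0.02, against the same medians over all probes, and these counts and medians rest on few probes. Multiprotein bridging factors 1 and 2 are coactivators that were described with BmFTZ-F1 in the silkworm. Factor 1 (sw03543) stayed within 2-fold, at 0.25, -0.39, 0.33 and -0.02. The 4 probes described as factor 2 disagreed. Probe sw11152 rose in BmESC RNAi (1.54, or 0.97 in the authors' ratio). Probe sw17172 fell in BmESC (-1.54) and BmPHO RNAi (-1.74), passing through the EGFP RNAi dye alone, which favours values below 0. Probe sw13224 fell in BmPHO RNAi (-1.39), and sw17216 stayed between -0.44 and 0.80. Whether the 4 probes read 1 gene is not given. The immunophilin FKBP45 (sw15595) fell in BmESC RNAi (-1.55) and gave -0.46, -0.59 and -0.37 in BmSCE, BmPHO and BmSCM RNAi.

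Among 4854 named probes measured on all arrays, those with log2 ratios most like each of the 4 genes over the 4 knockdowns were found by Euclidean distance. Nearest to the ecdysone receptor probe was a match to oxysterol-binding protein-like 5 (sw01632, distance 0.142), with 0.28, 0.08, 1.56 and 1.43 in the BmSCE, BmESC, BmPHO and BmSCM knockdowns. It was followed by matches to a protein kinase C and casein kinase substrate of neurons (sw05215, 0.145) and CG17841 (sw06353, 0.159). E75 had no neighbour as close. A probe that the array files describe as a BEL12 transposon polyprotein (sw18280), and that another annotation of the study names as a nuclear pore protein, lay at 0.349, with 1.22, 1.67, 1.39 and 0.98, a match to forkhead transcription factor O (sw09818) at 0.432 and a match to archvillin (sw09993) at 0.456.

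BmFTZ-F1 was nearest to a match to butyrate response factor 1 (sw13179, distance 0.135), an RNA-binding protein of the TIS11 family, with 0.30, 0.95, 1.02 and 1.17. A silkworm Gag protein (sw22764) followed at 0.186 and a zinc finger match (sw06268) at 0.280. Ecdysone 20-hydroxylase was nearest to a match to N-acetylneuraminic acid phosphate synthase (sw12447, 0.222), with -0.30, -0.76, -1.69 and -1.50, then to leprecan-like 1 (sw17261, 0.275) and Lin-52 (sw04656, 0.313). These distances span 4 arrays that share the EGFP RNAi control and describe likeness in these values alone.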

How the data were processed

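Intensity columns were deposited by the authors with local background subtracted, and the ratio column was deposited by the authors after a normalization within the array. The series table was deposited by the authors as log2 of that ratio. The sources used here do not give the image software, the method of that normalization or the flag rules. The columns of both dyes were set to a floor of 100, and log2 ratios of Cy5 over Cy3 were normalized by loess against mean brightness (span 0.3, all gene probes) with limma 3.58.1 in R 4.3.3. The procedure was tested on simulated data. Counts and figures used Python 3.11.15, numpy 2.4.6, pandas 2.3.3 and matplotlib 3.10.9. The arrays carry 70-mer oligonucleotides, and their number limits the precision. Flags passed where the brighter dye reached 400. Named were the 4 listed probes, other members measured on all 4 arrays or past 2-fold on at least 1, the 3 nearest patterns of each listed probe, and pathway probes past 2-fold. Further probes of the same genes, early genes and pathway probes within 2-fold were named after their values were seen. Members and lists were chosen with earlier results of these data known. Of the 63 probes, 19 carry a silkworm gene number, all 19 found in the RefSeq gene table, for 13 genes. Receptor protein sequences were not analysed here. Alternatives were median centring, loess per print block, the authors' ratio, floors of 50 and 200, both dyes at 400 or more, no filter and, chosen after seeing the data, a curve fitted to bright probes.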

Additional observations from a re-analysis of the deposited data

Results flagged for a closer look

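The ecdysteroid-inducible angiotensin-converting enzyme match (sw14172) moved in opposite directions in different knockdowns, with a log2 ratio of 1.54 in BmSCE RNAi and -1.15 in BmPHO RNAi. The difference was not tested, since each knockdown has 1 array. With the curve fitted to bright probes, its value in BmPHO RNAi was -0.93. On that array the probe had 248 in BmPHO RNAi against 467 in EGFP RNAi. It passed through the EGFP RNAi dye alone, a filter that favours values below 0. With both dyes at 400 or more it had no value in BmPHO RNAi.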

How the results depend on the processing

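Leaving out a replicate could not be run, since each knockdown has 1 array. No paired analysis was possible because each knockdown has 1 array and the labels carry no replicate numbers. Of 45 single values past 2-fold, 28 had a value under all 8 alternatives, and 17 had none with both dyes at 400 or more. All 45 kept their sign, and 35 stayed past 2-fold, under every alternative that gave a value. The settings with both dyes at 400 or more and with no filter change which probes are kept, not a probe's value. For single values they repeat the main value by construction and cannot show a change. Pathway probes outside the members past 2-fold in BmSCE RNAi were 2, and 1 with loess per print block, with the authors' ratio, with a floor of 200 and with both dyes at 400 or more. With both dyes at 400 or more, members that rose were 1 in BmESC and 2 in BmSCM RNAi, members that fell were 0 for BmSCE RNAi and 1 each for BmPHO and BmSCM RNAi, pathway probes past 2-fold in BmSCM RNAi were 5, and the medians were -0.06 in BmESC RNAi and 0.88 in BmPHO RNAi. Loess per print block left 1 riser in BmESC RNAi, and the authors' ratio gave a median of 0.91 in BmSCM RNAi. With no filter, pathway probes past 2-fold in BmSCE RNAi were 5, fallen members in BmPHO RNAi 5, and the medians 0.00 for all 4 knockdowns. Probes under the floor in both dyes have a ratio near 0.00 by construction, so these unfiltered medians cannot test a shift. The bright-probe curve gave 1 fallen member in BmPHO RNAi and 1 in BmSCM RNAi, 7 risen in BmSCM RNAi, and medians of 0.89 in BmPHO and 1.02 in BmSCM RNAi. Fewer probes pass the stricter filter, the floor acts on the unfiltered medians, and otherwise the cause was not tested. Median centring and a floor of 50 changed none of these counts by over 1.5 times.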

Other observations

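Juvenile hormone acts beside ecdysone in moulting and holds back metamorphosis. A list of 52 probes was drawn by name for this hormone and also takes in takeout and farnesoic acid matches, whose part in its action here was not tested. Of these 52, 12 were measured and 3 passed 2-fold, all downward: 1 of 8 in BmSCE, 1 of 11 in BmESC, 3 of 7 in BmPHO and 3 of 8 in BmSCM RNAi. Over all measured probes, 1.10%, 3.25%, 7.82% and 6.29% fell on these arrays. The list's median log2 ratio was -0.21, -0.23, -0.95 and -0.65 in the same order, against 0.02, 0.02, 0.05 and 0.07 over all measured probes. These counts and medians rest on few probes and support nothing by themselves. A match to a takeout-like protein (sw13451), in Drosophila a family of secreted carrier proteins, had 1498, 2971, 427 and 455 in the BmSCE, BmESC, BmPHO and BmSCM knockdowns, against 4202, 3093, 3031 and 3236 for EGFP RNAi. It fell in BmSCE (-1.70), BmPHO (-2.95) and BmSCM RNAi (-3.24) and gave -0.44 in BmESC RNAi. A match to farnesoic acid O-methyltransferase (sw21884), in crustaceans an enzyme of methyl farnesoate synthesis, gave -0.75, -1.28, -1.54 and -1.46. A probe matched to a nuclear juvenile hormone binding protein (sw14879) gave 0.23 in BmSCE RNAi and -0.29 in BmESC RNAi. It fell in BmPHO RNAi (-1.93) and in BmSCM RNAi (-1.67). Both falls passed through the EGFP RNAi dye alone, a filter that favours values below 0. Another probe with that match, sw01123, gave -0.35 in BmSCE and -0.23 in BmESC RNAi and was too dim in BmPHO and BmSCM RNAi. The other probes measured on all 4 arrays stayed within 2-fold. The cytosolic juvenile hormone binding protein (sw07438) gave -0.35, -0.35, -0.95 and -0.89. Juvenile hormone epoxide hydrolase (sw18593) gave -0.06, 0.63, -0.12 and 0.43. Matches to a juvenile hormone resistant protein (sw07095) and to juvenile hormone-inducible protein 1 (sw11823) gave 0.51, 0.05, 0.62 and 0.20, and 0.41, -0.09, 0.10 and -0.41.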
